A study of Mus musculus with 16 samples.

Results

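The factors that carry messenger RNA through initiation, elongation and termination of translation were examined in mouse 2-cell embryos after knockdown of Suv39h2. Members were the protein-coding genes whose GENCODE symbol begins with Eif and a digit from 1 to 5 or with Eef and 1 or 2, together with Gspt1, Gspt2, Etf1 and Abce1. Eif2ak2, Eif4enif1 and Eif6 were left out. The rule gave 68 of the 49585 gene identifiers in the tables, and the members were grouped by complex. The rule uses names and no measured value.

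RNA with a poly(A) tail was sequenced from 3 groups of 2-cell embryos by Smart-seq2, which reads whole transcripts without recording the strand. In the knockdown group (6 libraries) the zygotes had received double-stranded RNA targeting Suv39h2, which encodes a methyltransferase of lysine 9 of histone H3. In the LacZ control group (6 libraries) the double-stranded RNA targeted the bacterial gene LacZ, and the non-injected group (4 libraries) received none. All groups share the parental strains, DBA males and F1 females of C57BL/6J × CBA/H, and the culture medium KSOM. The design text gives pools of 5 embryos, whereas the extraction protocol speaks of single embryos, and a treatment protocol names Suv39h1 messenger RNA, which the labels of the injected agent do not mention. Nothing in the labels says whether libraries came from separate litters or days, so p-values measure the spread between these libraries, which may be technical. The labels name the 2-cell stage without an hour of collection. Each library holds whole embryos, so fewer cells with a transcript and less transcript per cell cannot be told apart.

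Initiation begins when eIF2 brings the initiator tRNA to the small ribosomal subunit, where eIF1, eIF1A, eIF3 and eIF5 act. The eIF4 factors bind the capped end of the messenger RNA and unwind it, and eIF5B joins the large subunit. Elongation runs on eEF1A, which delivers each loaded tRNA, and on eEF2, which moves the ribosome along. The pair eRF1 and eRF3, encoded by Etf1 and by Gspt1 or Gspt2, ends the chain, and ABCE1 splits the ribosome for reuse. In the mouse 2-cell embryo the maternal store of transcripts is being degraded while the embryonic genome is switched on, and Eif1a is known as an early product of that switch. In Drosophila the homolog of the Suv39 enzymes shares its transcription unit with the gamma subunit of eIF2, while in the mouse these are separate genes.

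Fold changes are taken from the authors' deposited table for each pair of groups, made with DESeq2 and given on the log2 scale with its standard error (SE). An adjusted p under 0.05 is counted as a call. The tables give means over libraries only, so the depth of single libraries and the spread within a group are unknown. The SE is that of the authors' fitted fold change and does not show that spread. A p-value need not follow from the printed fold change and its SE. The authors' deposited table put the targeted Suv39h2 at -1.95 ± 0.28 in knockdown over LacZ control (adjusted p = 4.72e-08), and its paralog Suv39h1 at -0.33 ± 0.19 (adjusted p = 0.419). Mean counts in the authors' deposited table were 27.7 to 983 for 8 markers of the 2-cell stage and 205 to 8077 for 8 oocyte markers. For 9 cumulus and granulosa markers the authors' deposited table had mean counts of 0.0454 to 16.1, and for 5 sperm markers 0.252 to 7.78.

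Most translation factors were well covered, and 60 of the 68 had a mean count of 100 or more. Per kilobase of exon, the highest level over all libraries was that of Eif5a, whose product helps ribosomes past difficult peptide bonds, at 4277 mean normalized counts per kb, computed from the authors' deposited table. On the same scale from the authors' deposited table came Eif5, which makes eIF2 hydrolyse its GTP (1297), Eif1, which guards the choice of start codon (1221), the cap-binding protein gene Eif4e (1018) and Eef1a1 (965). Within eIF3, whose subunits assemble with each other, the mean counts per kb from the authors' deposited table spread from 49.9 for Eif3d to 695 for Eif3c, with a median of 141. Eef1a2, the paralog known from muscle and neurons, was at 0.0752 counts per kb in the authors' deposited table, and the 4E-binding protein gene Eif4ebp3 at 0.295. The length joins all annotated exons of a gene, so a gene with long rare isoforms gets a low value per kb. In the plot of levels by complex, the transcripts called lower in knockdown over non-injected embryos lie between 39.8 and 695 counts per kb.

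**Figure D1:**
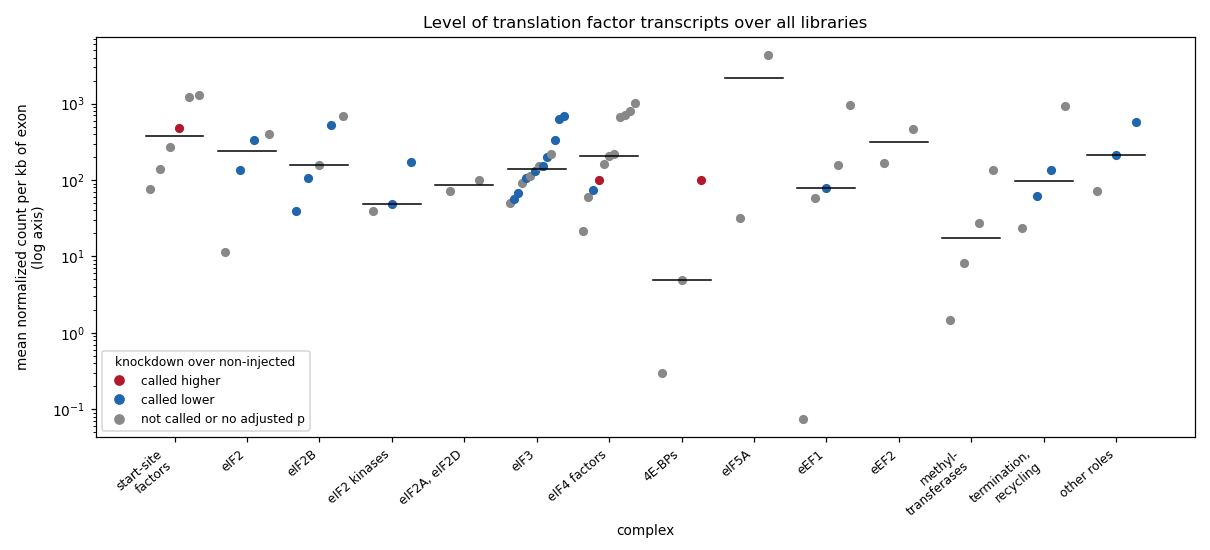
Mean normalized count per kb of exon over all libraries (log axis) for the 68 translation factor genes, by complex. Each point is a gene, colored by its call in knockdown over non-injected embryos, and bars are medians; the highest point is Eif5a at 4277 per kb and the lowest is Eef1a2 at 0.0752.

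Some members share sequence with copies elsewhere, and their counts are uncertain for that reason. For 9 members at least 20% of the 50-base stretches also occur in transcripts of another gene: Eif3j2, Eif4ebp3, Eif3j1, Eef1g, Eef1a1, Eif3d, Eif2s3x, Eif4a1 and Eif3h. Eif3j2 shared the most, 91.9% of its stretches, of which nearly all lie in its near-identical copy Eif3j1. Exons of 17 members overlap exons on the opposite strand, among them Gspt1 with 2610020C07Rik, Eif3m with Ccdc73, Eif3d with Gm17638, Eif2ak1 with Aimp2, Eif1b with D830035M03Rik and Eif2b4 with Snx17. Without strand, reads of such an overlap may come from either gene.

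In knockdown over non-injected embryos, 17 of 47 initiation transcripts were called lower and 3 higher, and 2 of 4 transcripts of termination and recycling were called lower. The initiation count includes genes that restrain initiation, the kinases of eIF2 (2 called lower) and the 4E-binding proteins (1 called higher). Of the 65 members with an adjusted p, 22 were called lower (33.8%) and 3 higher (4.62%), and the members without one were Eif4ebp3, Eef1a2 and Eef1akmt3. Over all genes of that comparison 15.2% were called, 7.76% lower and 7.41% higher. Among protein-coding genes with a mean count of 100 or more 22.6% were called, 13.9% lower and 8.64% higher, and of the 60 members above that count 36.7% were called lower. The members' median log2 fold change in the authors' deposited table was -0.37, beside 0.05 over all genes with an adjusted p and -0.09 over the protein-coding genes with a mean count of 100 or more. The 22 falls ran from -1.55 to -0.49 in the authors' deposited table, and the 3 rises were those of Eif4ebp1, Eif4e1b and Eif1b. Oocyte markers were higher in the same comparison, with 4 of 8 called higher and 0 lower, and so were markers of the 2-cell stage, again with 4 of 8 called higher and 0 lower. Their part in the members' values was not tested. Adjusted over every gene with a p-value, 15 members were called, 14 lower and 1 higher, and Eif4ebp1 and Eif1b were no longer among them.

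**Figure D2:**
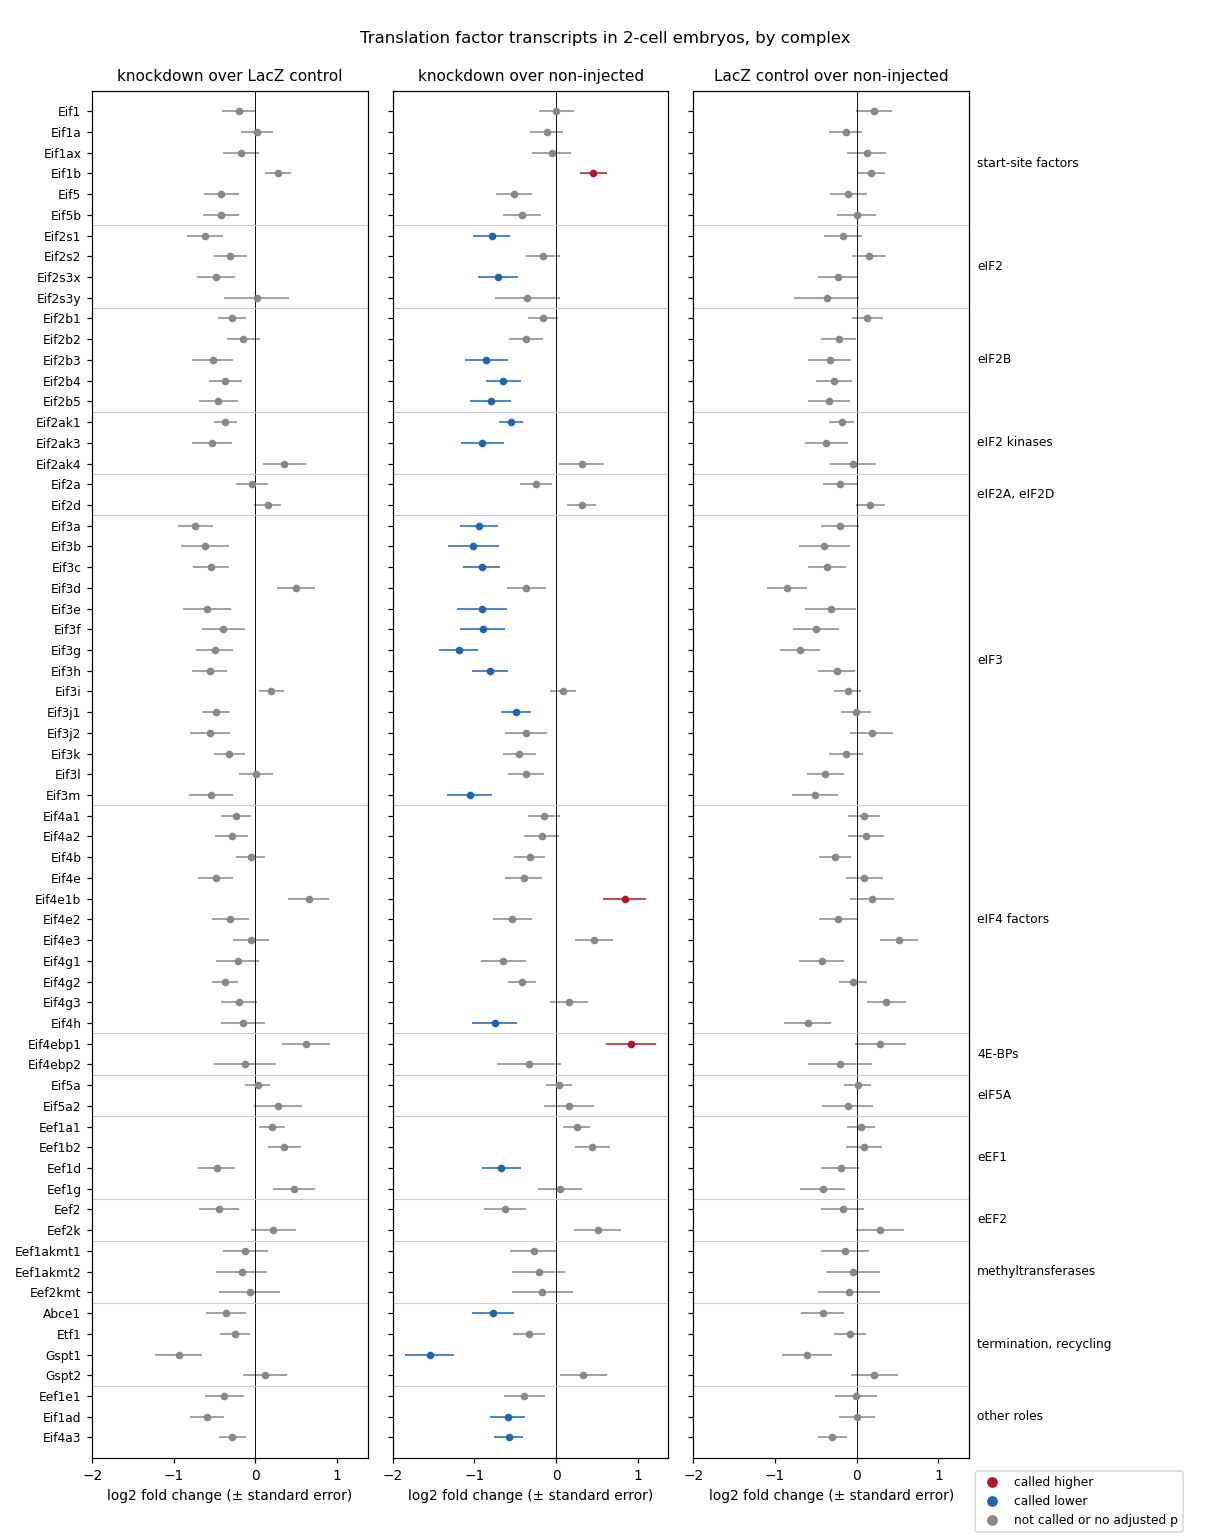
Log2 fold change (± SE) for the 65 members with an adjusted p, by complex, from the authors' deposited tables of 3 comparisons. In knockdown over non-injected embryos 22 genes are called lower and 3 higher, and each of the other panels shows 0 calls.

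The largest single fall was in termination. Gspt1 (ENSMUSG00000062203.14) encodes the GTPase eRF3a, which works with eRF1 at stop codons, and spans chr16:11219292-11254325 on the minus strand of GRCm38. Its log2 fold change in knockdown over non-injected embryos was -1.55 ± 0.30 (SE; adjusted p = 8.47e-05) in the authors' deposited table, a level 2.92-fold lower. Abce1, the recycling ATPase, was also called lower in the authors' deposited table, at -0.78 ± 0.26 (adjusted p = 0.0287). The gene of eRF1, Etf1, was not called in the authors' deposited table (-0.33 ± 0.19, adjusted p = 0.247), nor was Gspt2, an intronless paralog of Gspt1 (0.33 ± 0.29, adjusted p = 0.494). Over all libraries Etf1 had 941, Gspt1 134 and Gspt2 23.3 mean normalized counts per kb in the authors' deposited table.

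The initiation complex eIF3, a large assembly that bridges the small ribosomal subunit and eIF4G, held 9 of the 22 falls. Its 14 transcripts had a median log2 fold change of -0.85 in knockdown over non-injected embryos in the authors' deposited table. Eif3g (chr9:20894349-20898623, minus strand), an RNA-binding subunit, had the largest fall of the complex in the authors' deposited table, at -1.19 ± 0.24 (adjusted p = 0.000115), a level 2.29-fold lower. Of the subunits with PCI or MPN domains, which form the core, 6 of 8 were called lower. According to the authors' deposited table these were Eif3m (-1.06 ± 0.28, adjusted p = 0.00339), Eif3a (-0.94 ± 0.23, adjusted p = 0.00161), Eif3c (-0.91 ± 0.23, adjusted p = 0.00292), Eif3e (-0.91 ± 0.31, adjusted p = 0.0363), Eif3f (-0.90 ± 0.27, adjusted p = 0.0124) and Eif3h (-0.81 ± 0.22, adjusted p = 0.00628). The core subunits Eif3k and Eif3l had -0.45 ± 0.20 and -0.37 ± 0.22 in the authors' deposited table and were not called (adjusted p = 0.115 and 0.239).

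Outside that core 3 of 6 were called lower. Eif3b, the scaffold on which eIF3g and eIF3i sit, fell by 1.01 ± 0.31 on the log2 scale (adjusted p = 0.0217) in the authors' deposited table. Its partner Eif3i was not called and had a log2 fold change of 0.08 ± 0.16 (adjusted p = 0.768) in the authors' deposited table. Eif3j1, a loosely bound subunit, was called at -0.49 ± 0.18 (adjusted p = 0.0453) in the authors' deposited table, while its near-identical copy Eif3j2 was not (-0.37 ± 0.26, adjusted p = 0.359). Eif3d, the subunit that can itself bind a cap, had -0.36 ± 0.24 (adjusted p = 0.315) in the authors' deposited table and was not called. Whether subunits differed from each other in their change was not tested.

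The stretch upstream of the start is printed for Gspt1 and for the 5 eIF3 members with the largest falls that have a single start in the RefSeq promoter table (GRCm38.p6). That of Eif1b, with the largest rise among called risers that have a single start in that table, is printed as well. Whether these promoters have a part in the changes was not tested. Each runs 5′ to 3′ over 150 bases and ends just before the RefSeq start, which can differ from the GENCODE start of the gene. Capitals mark CGGAAG, the core bound by ETS factors, GGGCGG, bound by Sp1, CACGTG, an E-box, and TATAAA, searched on both strands, where CGGAAG and GGGCGG may overlap.
Gspt1 (chr16:11254326-11254475, minus strand): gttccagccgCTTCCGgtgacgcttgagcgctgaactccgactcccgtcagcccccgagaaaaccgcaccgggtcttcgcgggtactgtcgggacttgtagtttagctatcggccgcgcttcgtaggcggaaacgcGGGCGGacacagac
Eif3g (chr9:20898591-20898740, minus strand): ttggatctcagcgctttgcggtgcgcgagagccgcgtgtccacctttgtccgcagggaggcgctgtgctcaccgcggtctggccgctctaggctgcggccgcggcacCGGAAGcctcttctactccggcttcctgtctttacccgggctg
Eif3m (chr2:105017028-105017177, minus strand): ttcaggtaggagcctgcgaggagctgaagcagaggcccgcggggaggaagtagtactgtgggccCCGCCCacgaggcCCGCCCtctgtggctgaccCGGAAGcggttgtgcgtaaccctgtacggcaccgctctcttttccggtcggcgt
Eif3b (chr5:140419155-140419304, plus strand): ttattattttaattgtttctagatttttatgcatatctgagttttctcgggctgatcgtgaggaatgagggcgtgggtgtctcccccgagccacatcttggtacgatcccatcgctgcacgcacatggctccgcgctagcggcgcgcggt
Eif3a (chr19:60790694-60790843, minus strand): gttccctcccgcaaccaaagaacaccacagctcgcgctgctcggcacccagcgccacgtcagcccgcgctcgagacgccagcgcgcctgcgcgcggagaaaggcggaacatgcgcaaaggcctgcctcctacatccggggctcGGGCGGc
Eif3c (chr7:126566367-126566516, minus strand): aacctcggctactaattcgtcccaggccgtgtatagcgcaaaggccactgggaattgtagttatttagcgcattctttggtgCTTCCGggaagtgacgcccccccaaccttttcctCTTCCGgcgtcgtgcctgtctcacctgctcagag
Eif1b (chr9:120492456-120492605, plus strand): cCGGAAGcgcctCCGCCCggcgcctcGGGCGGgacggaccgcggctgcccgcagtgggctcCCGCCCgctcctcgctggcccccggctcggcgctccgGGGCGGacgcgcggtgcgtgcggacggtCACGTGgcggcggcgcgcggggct

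In these stretches CGGAAG occurs for Gspt1, Eif3g, Eif3m, Eif3c and Eif1b, and GGGCGG for Gspt1, Eif3m, Eif3a and Eif1b. That of Eif3b holds none of the 4 motifs, and CACGTG occurs in that of Eif1b alone. RefSeq gave a promoter of 300 bases, 250 before and 50 after the start, for 51 of the 68 members. CGGAAG was present in 27 of these 51 (52.9%), against 39.0% of promoters of protein-coding genes with a mean count of 100 or more and 18.8% of all promoters in the table. CACGTG was present in 12 of 51 members (23.5%), against 12.6% and 8.09% of the same backgrounds. GGGCGG was in 74.5% of the members, against 70.8% and 38.2%, and TATAAA in 9.80%, against 8.14% and 15.7%. Among members called lower in knockdown over non-injected embryos 9 of 18 promoters held CGGAAG, against 18 of 33 among the other members. For GGGCGG it was 13 of 18 against 25 of 33, for CACGTG 3 of 18 against 9 of 33, and for TATAAA 3 of 18 against 2 of 33. These shares describe letters in the window and were not tested.

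Both the trimeric eIF2 and its exchange factor eIF2B had members called lower in knockdown over non-injected embryos. Eif2s1, the alpha subunit whose phosphorylation slows initiation, fell by 0.79 ± 0.23 on the log2 scale (adjusted p = 0.00926) in the authors' deposited table. The gamma subunit gene Eif2s3x on the X chromosome was called at -0.71 ± 0.24 (adjusted p = 0.0315) in the authors' deposited table. Its Y-linked copy Eif2s3y, with a mean count of 47.8, was not called (-0.35 ± 0.40, adjusted p = 0.687), nor was the beta subunit gene Eif2s2 (-0.16 ± 0.21, adjusted p = 0.650), in the authors' deposited table.

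Of the 5 subunits of eIF2B, 3 were called lower: Eif2b3, Eif2b4 and Eif2b5, the gamma, delta and epsilon subunits. The authors' deposited table gave log2 fold changes of -0.85 ± 0.26 for Eif2b3, -0.64 ± 0.21 for Eif2b4 and -0.80 ± 0.25 for Eif2b5 (adjusted p = 0.0177, 0.0262 and 0.0134). Gamma and epsilon form the catalytic part. The other regulatory subunit genes, Eif2b1 and Eif2b2, had -0.16 ± 0.18 and -0.37 ± 0.21 in the authors' deposited table and were not called (adjusted p = 0.648 and 0.253).

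Among the kinases of eIF2, Eif2ak3 (PERK, which senses stress of the endoplasmic reticulum) fell by 0.90 ± 0.26 and Eif2ak1 (HRI, which senses a lack of heme) by 0.56 ± 0.15 (adjusted p = 0.00937 and 0.00497), as listed in the authors' deposited table. Eif2ak4 (GCN2, which senses uncharged tRNA) was not called in the authors' deposited table (0.31 ± 0.28, adjusted p = 0.480). Ppp1r15a and Ppp1r15b, whose products direct the phosphatase that reverses these kinases, were called lower in the authors' deposited table (-0.74 ± 0.26 and -0.60 ± 0.21, adjusted p = 0.0329 and 0.0319). They were the 2 calls among 8 listed genes of the stress response. That share of 25.0% is near the 22.6% called among protein-coding genes with a mean count of 100 or more. Atf4, which is translated when eIF2 is phosphorylated, had -0.30 ± 0.19 (adjusted p = 0.278) in the authors' deposited table. Eif2a and Eif2d, which can bring initiator tRNA by other routes, had -0.25 ± 0.20 and 0.31 ± 0.17 in the authors' deposited table and were not called (adjusted p = 0.427 and 0.225).

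At the cap, 1 of 11 eIF4 members was called lower and 1 higher in knockdown over non-injected embryos. These calls are 18.2% of them, a share between the 15.2% of all genes and the 22.6% of well-covered protein-coding genes called. Well covered here means a mean count of 100 or more. Eif4h, a helper of the helicase eIF4A, fell by 0.75 ± 0.28 (adjusted p = 0.0403) in the authors' deposited table. Eif4e1b (chr13:54783998-54788459, plus strand), the oocyte form of the cap-binding protein, rose by 0.84 ± 0.26 (adjusted p = 0.0186) in the authors' deposited table, a level 1.79-fold higher. The general form Eif4e was not called in the authors' deposited table (-0.39 ± 0.23, adjusted p = 0.256). Over all libraries, mean normalized counts per kb in the authors' deposited table were 99.7 for Eif4e1b and 1018 for Eif4e. Further cap-binding paralogs in the authors' deposited table were Eif4e3 (0.46 ± 0.23, adjusted p = 0.141) and Eif4e2, a repressor of translation (-0.53 ± 0.24, adjusted p = 0.10), neither of them called.

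The scaffold genes Eif4g1, Eif4g2 and Eif4g3 had -0.65 ± 0.27, -0.42 ± 0.17 and 0.16 ± 0.23 in the authors' deposited table, with adjusted p of 0.0847, 0.0727 and 0.670. For the helicase genes Eif4a1 and Eif4a2 and their cofactor Eif4b the authors' deposited table gave -0.15 ± 0.19, -0.18 ± 0.22 and -0.33 ± 0.19 (adjusted p = 0.656, 0.637 and 0.244). None of these 6 was called.

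Eif4ebp1 (chr8:27260329-27276674, plus strand), an inhibitor that holds eIF4E away from the scaffold, rose by 0.92 ± 0.31 (adjusted p = 0.0281) in the authors' deposited table, a level 1.89-fold higher. Its paralog Eif4ebp2, with a mean count of 28.4, had -0.33 ± 0.39 (adjusted p = 0.468) in the authors' deposited table and was not called.

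Of 6 poly(A)-binding proteins and partners with an adjusted p, which tie the tail of the messenger RNA to eIF4G or control that tie, 1 was called lower and 1 higher in knockdown over non-injected embryos. These calls are 33.3% of them, beside 15.2% of all genes and 22.6% of protein-coding genes with a mean count of 100 or more. Pabpc1, the general form, fell by 0.85 ± 0.22 and Pabpc1l, the oocyte form, rose by 1.40 ± 0.34 (adjusted p = 0.00280 and 0.00214) in the authors' deposited table. Pabpc4, another general form with a mean count of 1862, was not called (-0.0029 ± 0.24, adjusted p = 0.990) in the authors' deposited table. The called oocyte markers were Bmp15 (0.87 ± 0.24), Zp2 (0.85 ± 0.19), Gdf9 (0.76 ± 0.23) and Oosp1 (0.71 ± 0.23), and the median of all 8 oocyte markers was 0.72, in the authors' deposited table. The part of oocyte transcripts in the values of Eif4e1b and Pabpc1l was not tested. In the plot of paralogs, the oocyte forms lie above 0 and the general forms Eif4e and Pabpc1 below 0 in both knockdown comparisons.

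**Figure D3:**
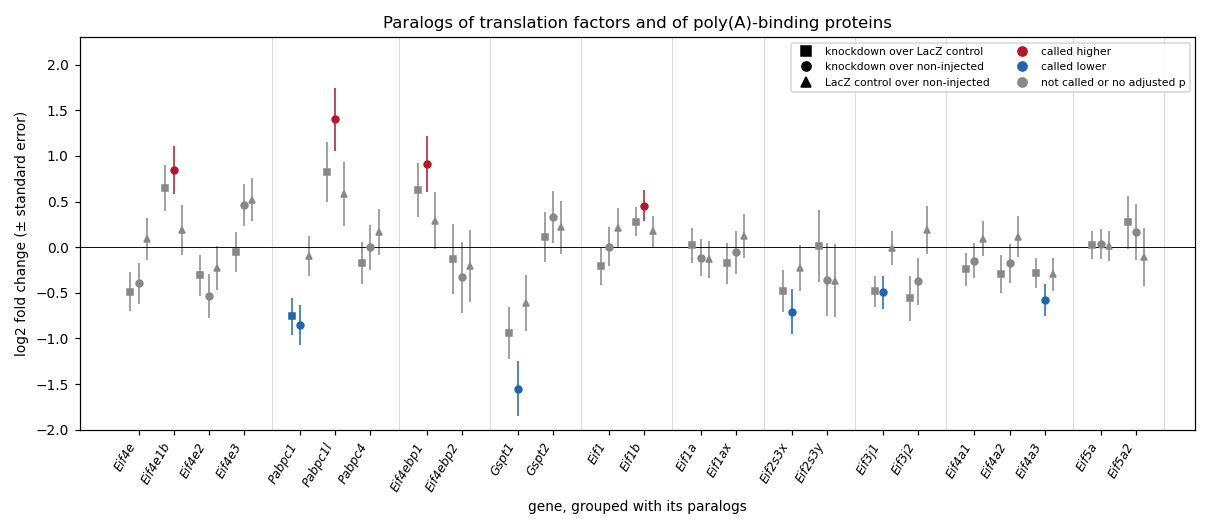
Log2 fold change (± SE) for paralogs of translation factors and of poly(A)-binding proteins, from the authors' deposited tables, with a symbol for each of 3 comparisons. In knockdown over non-injected embryos Eif4e1b, Pabpc1l, Eif4ebp1 and Eif1b are called higher, and Pabpc1, Gspt1, Eif2s3x, Eif3j1 and Eif4a3 lower.

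Among start-site and joining factors 1 of 6 (16.7%) was called in knockdown over non-injected embryos, a share near the 15.2% of all genes called. Eif1b (chr9:120492232-120495330, plus strand), a close paralog of Eif1, rose by 0.45 ± 0.17 (adjusted p = 0.0458) in the authors' deposited table, a level 1.37-fold higher. Eif1 itself was not called in the authors' deposited table (0.00 ± 0.21, adjusted p = 0.993). Eif1a and its X-linked paralog Eif1ax had -0.12 ± 0.20 and -0.06 ± 0.24 in the authors' deposited table, with adjusted p of 0.731 and 0.873. For Eif5 and Eif5b the authors' deposited table gave -0.52 ± 0.22 and -0.42 ± 0.23, neither called (adjusted p = 0.0949 and 0.210).

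Elongation had 1 call in knockdown over non-injected embryos. Eef1d, a nucleotide exchange subunit of eEF1, fell by 0.67 ± 0.24 (adjusted p = 0.0375) in the authors' deposited table. The other exchange subunit gene Eef1b2, the subunit gene Eef1g and the tRNA carrier gene Eef1a1 had 0.44 ± 0.21, 0.05 ± 0.27 and 0.25 ± 0.17 in the authors' deposited table, with adjusted p of 0.151, 0.950 and 0.337. For the translocase gene Eef2 and its inhibitory kinase gene Eef2k the authors' deposited table gave -0.62 ± 0.26 and 0.51 ± 0.29 (adjusted p = 0.0905 and 0.242). Eif5a and Eif5a2 had 0.04 ± 0.16 and 0.16 ± 0.31 in the authors' deposited table, with adjusted p of 0.895 and 0.831. Of 3 elongation factor methyltransferases with an adjusted p, DESeq2 called 0, with 0 at an unadjusted p under 0.05, and Eef1akmt1 had the smallest p (-0.28 ± 0.29, adjusted p = 0.574) in the authors' deposited table.

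Members that carry a factor's name but act elsewhere had 2 calls of 3. Eif4a3, the helicase of the exon junction complex, fell by 0.58 ± 0.17 and Eif1ad by 0.59 ± 0.22 (adjusted p = 0.0115 and 0.0445) in the authors' deposited table. Eef1e1, part of the complex of tRNA synthetases, was not called in the authors' deposited table (-0.39 ± 0.25, adjusted p = 0.345).

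Ribosomal proteins and tRNA synthetases, the nearest groups by function, had 39 of 83 (47.0%) and 2 of 20 genes called lower in knockdown over non-injected embryos, beside 22 of 65 translation factors. Called higher were 3 translation factors, 0 ribosomal protein genes and 1 tRNA synthetase gene. The median log2 fold change in the authors' deposited table was -0.37 for translation factors, -0.62 for ribosomal proteins and -0.25 for tRNA synthetases. These groups stand side by side as a description, and their difference was not tested. Of 9 mitochondrial translation factors DESeq2 called 0, while 1 higher and 0 lower genes reached an unadjusted p under 0.05.

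**Figure D4:**
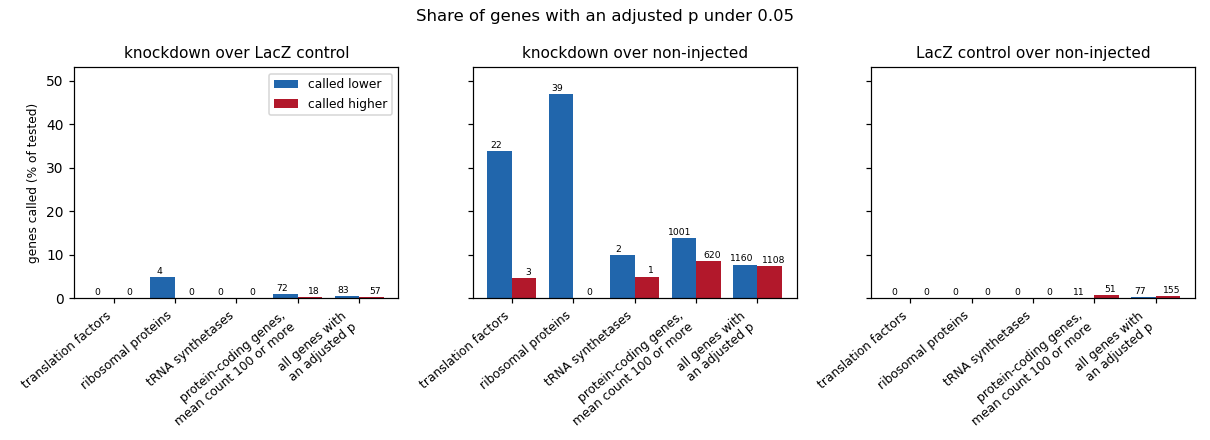
Share of genes called lower and higher, as a percent of the genes with an adjusted p, with the number of genes over each bar. In knockdown over non-injected embryos 33.8% of translation factors are called lower, beside 47.0% of ribosomal proteins and 7.76% of all genes.

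Of 12 genes of mTORC1 and MNK signalling 1 was called in knockdown over non-injected embryos, Larp1, which binds messenger RNAs of the translation machinery, at -1.10 ± 0.29 (adjusted p = 0.00388) in the authors' deposited table. Larp1 was not called in knockdown over LacZ control (-0.35 ± 0.28, adjusted p = 0.589) in the authors' deposited table. Nor was it called in LacZ control over non-injected embryos (-0.75 ± 0.29, adjusted p = 0.361) in the authors' deposited table. Bzw2 and Bzw1, which mimic eIF5, were the 2 calls of 8 among reinitiation, rescue and mimic genes, at -1.02 ± 0.28 and -0.58 ± 0.19 (adjusted p = 0.00663 and 0.0206) in the authors' deposited table. Of the 2 enzymes that make hypusine on eIF5A DESeq2 called 0, with 1 lower at an unadjusted p under 0.05. In all, 6 of 45 pathway genes with an adjusted p were called lower and 1 higher, or 15.6%, a share near the 15.2% of all genes called in that comparison and below the 22.6% of protein-coding genes with a mean count of 100 or more.

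Knockdown over LacZ control compares groups that both received double-stranded RNA, targeting Suv39h2 in one and LacZ in the other. DESeq2 called 0 of 65 members. Called were 0.899% of all genes and 1.25% of protein-coding genes with a mean count of 100 or more. A count of 0 of 65 is near those low shares and does not show that the members were unchanged. At an unadjusted p under 0.05, 19 members were lower and 3 higher, and over all 15572 genes 1257 were lower and 1027 higher. Among the 7177 protein-coding genes with a mean count of 100 or more, 1005 were lower and 393 higher at that p. The members' median log2 fold change in the authors' deposited table was -0.28, beside 0.02 over all genes with an adjusted p and -0.08 over protein-coding genes with a mean count of 100 or more. Eif3a (-0.73 ± 0.22, adjusted p = 0.0572) and Gspt1 (-0.94 ± 0.29, adjusted p = 0.0681) had the smallest adjusted p in the authors' deposited table. Adjusted over protein-coding genes, or over genes with a mean count of at least 100, 1 member was called, Eif3a.

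By complex, eIF3 had a median of -0.52 in the authors' deposited table for knockdown over LacZ control, and an unadjusted p under 0.05 was reached by 7 lower members and 1 higher one. The higher one was Eif3d, at 0.49 ± 0.23 (adjusted p = 0.290) in the authors' deposited table. The smallest p in eIF2 was that of Eif2s1 (-0.62 ± 0.22, adjusted p = 0.120), in eIF2B of Eif2b5 (-0.46 ± 0.24, adjusted p = 0.312) and among the kinases of Eif2ak1 (-0.37 ± 0.14, adjusted p = 0.162) in the authors' deposited table. At the cap it was Eif4e1b (0.65 ± 0.25, adjusted p = 0.174) and among 4E-binding proteins Eif4ebp1 (0.62 ± 0.29, adjusted p = 0.294) in the authors' deposited table. Start-site factors had Eif5 (-0.42 ± 0.21, adjusted p = 0.335) and elongation Eef1d (-0.48 ± 0.22, adjusted p = 0.292) and Eef2 (-0.45 ± 0.25, adjusted p = 0.396) in the authors' deposited table. For the remaining groups, among members with an adjusted p, it was Eif1ad (-0.60 ± 0.20, adjusted p = 0.114), Eif2d (0.15 ± 0.17, adjusted p = 0.722), Eif5a2 (0.27 ± 0.29, adjusted p = 0.759) and Eef1akmt1 (-0.13 ± 0.28, adjusted p = 0.889) in the authors' deposited table.

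Pabpc1 was the 1 gene called among 45 pathway genes in knockdown over LacZ control, at -0.76 ± 0.21 (adjusted p = 0.0364) in the authors' deposited table. Pabpc1l was not called in the authors' deposited table (0.82 ± 0.33, adjusted p = 0.218). Of the 83 ribosomal protein genes 4 were called lower and 0 higher, while 47 lower and 0 higher genes reached an unadjusted p under 0.05. Of the 20 tRNA synthetase genes DESeq2 called 0, while 1 lower and 1 higher gene reached that p. The median log2 fold change in the authors' deposited table was -0.47 for ribosomal proteins and -0.02 for tRNA synthetases, beside -0.28 for translation factors. Among 8 oocyte markers DESeq2 called 0, while 1 higher and 0 lower genes reached an unadjusted p under 0.05.

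LacZ control over non-injected embryos addresses the injection of double-stranded RNA as such. DESeq2 called 0 of the 68 members. Called were 0.792% of all genes and 0.864% of protein-coding genes with a mean count of 100 or more. A count of 0 of 68 is near those low shares. An unadjusted p under 0.05 was reached by 4 lower members and 1 higher one. The members' median log2 fold change in the authors' deposited table was -0.12, beside 0.00 over all genes. For the 14 eIF3 transcripts that median was -0.34 in the authors' deposited table, and 13 of them had a negative value. Eif3d had the smallest adjusted p in the authors' deposited table, at -0.86 ± 0.25 (adjusted p = 0.0665), and shares 37.2% of its stretches with the overlapping gene Gm17638. Lower at an unadjusted p under 0.05 were also Eif3g (-0.69 ± 0.24, adjusted p = 0.232), Gspt1 (-0.61 ± 0.31, adjusted p = 0.640) and Eif4h (-0.60 ± 0.28, adjusted p = 0.576) in the authors' deposited table. The higher one was Eif4e3, at 0.52 ± 0.23 (adjusted p = 0.537) in the authors' deposited table. Every other member had an adjusted p of 0.728 (Eif3m) or more in the authors' deposited table. Of 45 pathway genes DESeq2 called 0, while 3 lower and 3 higher genes reached an unadjusted p under 0.05. Of 83 ribosomal protein genes it called 0, while 1 lower and 1 higher gene reached that p, and of 21 tRNA synthetase genes 0, with 0 reaching it. Markers of the 2-cell stage had 2 of 8 called higher in this comparison, Tcstv1 and Tcstv3, and 0 lower. Of 8 oocyte markers DESeq2 called 0, while 4 higher and 0 lower genes reached an unadjusted p under 0.05, and their median log2 fold change was 0.46 in the authors' deposited table, beside 0.72 in knockdown over non-injected embryos and 0.18 in knockdown over LacZ control.

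The 3 comparisons share their libraries, and for each gene the log2 fold change between knockdown and non-injected embryos is the sum of those of the other pairs, so they are not independent. For Gspt1 the authors' deposited table gave -0.94 ± 0.29 in knockdown over LacZ control, -1.55 ± 0.30 in knockdown over non-injected embryos and -0.61 ± 0.31 in LacZ control over non-injected embryos. In the same order the authors' deposited table had -0.50 ± 0.23, -1.19 ± 0.24 and -0.69 ± 0.24 for Eif3g. Eif2s1 had -0.62 ± 0.22, -0.79 ± 0.23 and -0.17 ± 0.23, and Eif4e1b 0.65 ± 0.25, 0.84 ± 0.26 and 0.19 ± 0.27, in that order in the authors' deposited table. A call in knockdown over non-injected embryos with none in the other pairs does not show that the comparisons differ, and that difference was not tested.

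The members called lower in knockdown over non-injected embryos spread over levels and transcript lengths. The 22 called lower had a median mean count of 555 (197 to 2442) in the authors' deposited table, and the 40 not called 557 (21.9 to 10167). The median joined exon length was 4382 bases for the 22 called lower and 4165 bases for the 40 not called. The 22 genes lie on 13 chromosomes, with at most 4 on a single one, chromosome 5.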

How the data were processed

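Polyadenylated RNA of 16 libraries of mouse 2-cell embryos was sequenced and processed by the authors. Per the submitters' processing notes, the tools were STAR 2.5.2b, SAMtools, HTSeq 0.9.1 and DESeq2 1.18.1, with the build GRCm38.p5. Estimation of unwanted variation with RUVSeq and shrinkage of fold changes are known from the names of the deposited tables only, and shrinkage pulls the fold changes of weakly covered genes towards 0. Per the file headers, each deposited gene table holds a mean normalized count (a signal over all libraries), a log2 fold change with its SE, a Wald statistic (a score), the p-value and its adjusted form.

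Values of single libraries are not part of the tables used (0 such columns), so no refit, batch check or count interval was made, and library depth is unknown. Identifiers were matched to GENCODE vM21 without version, which gave a symbol to 99.5% of 49585. Exon overlaps, joined exon lengths and shared 50-base stretches (either strand, all transcripts) come from that annotation. Promoters are those of RefSeq on GRCm38.p6, matched by symbol. Work used Python 3.11.15, pandas 2.3.3 and numpy 2.4.6. The adjustment by Benjamini-Hochberg was tested on simulated data; run over genes that have an adjusted p, it differed from the deposited values by at most 1.84e-05.

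The members and gene lists were chosen with earlier results of these data known, and no set test was made. The rule for named genes was every member called in knockdown over LacZ control (there were 0). It also took the called member with the largest rise and fall of each complex and comparison. With none called, the member with the smallest p was taken, but for LacZ control over non-injected embryos not in every complex. Paralogs or partner subunits are named beside them. Values of the other members called in knockdown over non-injected embryos are given as well. Other pathway genes come from 6 lists. Alternatives were other sets of genes in the adjustment, other thresholds, and members without overlaps, shared stretches or other roles.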

Additional observations from a re-analysis of the deposited data

How the results depend on the processing

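In knockdown over non-injected embryos, 25 members were called. Adjustment over every gene with a p-value left 15 calls (14 lower, 1 higher): Abce1, Eef1d, Eif1ad, Eif1b, Eif2b4, Eif2s3x, Eif3e, Eif3j1, Eif4ebp1 and Eif4h lost theirs, with adjusted p of 0.0531 (Eif2b4) to 0.0923 (Eif1b). A threshold of 0.01 left 9 calls, all lower: Eif2ak1, Eif2ak3, Eif2s1, Eif3a, Eif3c, Eif3g, Eif3h, Eif3m and Gspt1. Under the other alternatives the count was 17 to 29; without members that overlap exons on the opposite strand it was 17 of 49, and without members that share 20% or more of their stretches, an alternative chosen after seeing the data, 22 of 57. In knockdown over LacZ control, 0 calls became 1 (Eif3a, lower) when adjusted over genes with a mean count of at least 100 or over protein-coding genes, and 2 (Eif3a and Gspt1, lower) at a threshold of 0.1. In LacZ control over non-injected embryos, 0 calls became 1 (Eif3d, lower) at a threshold of 0.1. Where members were left out, the adjusted p and the threshold stayed the same and only the set of members changed. The other differences come from the genes adjusted over or from the threshold itself. The members' median log2 fold change moved by less than the median SE in all 3 comparisons under the alternatives run: from -0.30 to -0.25 for knockdown over LacZ control, -0.39 to -0.37 for knockdown over non-injected and -0.14 to -0.12 for LacZ control over non-injected. No paired analysis was possible because the tables hold no values of single libraries, and for the same reason no library could be left out.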
